A study of Rattus norvegicus with 6 samples.

Results

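The family of miR-15, miR-16, miR-195 and miR-497 was followed in rat primary sertoli cells with and without 4-nonylphenol (4-NP), an alkylphenol with estrogen-like action. Its members were all rows of the deposited mature miRNA counts named rno-miR-15a, rno-miR-15b, rno-miR-16, rno-miR-195 or rno-miR-497, with either arm ending, which gave 10 of the 734 mature miRNAs counted. Sertoli cells, the supporting cells of the seminiferous tubule, had been enriched by enzyme digestion from testes of Sprague-Dawley rats aged 5 to 10 days and were passaged and cultured with serum. There were 3 control samples with 0 mM 4-NP and 3 samples with 0.5 mM 4-NP, all collected at 24 h, and the labels give no genetic change in either group. The labels do not say whether the samples of a group came from separate cultures or animals. The p-values therefore set group differences against the spread between these samples, which may be technical.

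A miRNA is cut from a hairpin RNA whose 5p and 3p arms can each be loaded into an Argonaute protein, and it then finds target mRNAs mainly by its seed, the bases near its 5′ end. The 5p arms of miR-15a, miR-15b, miR-16, miR-195 and miR-497 are counted as a family because they share a seed, and they are best known for holding back the cell cycle through cyclins and cyclin-dependent kinases and for lowering the survival protein BCL2. Loss of the human miR-15a and miR-16 gene pair in chronic lymphocytic leukaemia was an early link between a miRNA and cancer, and miR-195 rises in the postnatal heart as muscle cells leave the cell cycle.

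The mature sequences are shown because the comparisons below rest on which arms share a seed. They were taken by name from RefSeq (build GRCr8), which held 8 of the 10 arms. No sequence was matched for miR-15a-5p and miR-15a-3p. Capitals mark the seed, bases 2 to 8 counted from the 5′ end.
miR-15b-5p: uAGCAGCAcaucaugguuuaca
miR-16-5p: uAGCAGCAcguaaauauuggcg
miR-195-5p: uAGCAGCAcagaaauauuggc
miR-497-5p: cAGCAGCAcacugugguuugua
miR-15b-3p: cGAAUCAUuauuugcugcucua
miR-16-3p: aCCAAUAUuauugugcugcuu
miR-195-3p: cCAAUAUUggcugugcugcucca
miR-497-3p: cCAAACCAcacugugguguuaga
The 4 matched 5p arms had the same seed, whereas the 4 matched 3p arms each had a seed of their own. miR-16-5p and miR-195-5p were identical at 19 of 21 positions and differed by G10A and U11G, with the miR-16-5p base first and positions counted from the 5′ end. How the authors' counting assigned reads with mismatches between such close sequences is not given in the sources used here, and its part in the values was not tested.

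In GRCr8 the miR-15b and miR-16 hairpins lie together inside the protein-coding gene Smc4 on the plus strand of chromosome 2, with miR-15b-5p at chr2:155555197-155555218 and miR-16-5p at chr2:155555343-155555364, and 86 bases separate miR-15b-3p from miR-16-5p. The miR-497 and miR-195 hairpins lie outside any other annotated gene on the plus strand of chromosome 10, with miR-497-5p at chr10:55450172-55450193 and miR-195-5p at chr10:55450509-55450529, and 275 bases separate miR-497-3p from miR-195-5p. The genome build used for counting is not given in the sources used here, so these positions come from the reference only. No position was matched for miR-15a, and whether reads of miR-16-5p also came from a hairpin beside it was not tested.

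Each sample had 20023200 to 23426742 reads on mature miRNAs, of which miR-21-5p took 62.0 to 63.9%. Levels are given as CPM, the reads per 1000000 mature miRNA reads of the sample, in which 3 reads correspond to 0.128 to 0.150 CPM. Changes were tested with edgeR's quasi-likelihood F test after TMM scaling across the 549 miRNAs with enough reads. The sertoli-associated miR-202 was present, with 2 of 2 arms counted and a summed level of 807 to 1195 CPM in the controls and 698 to 796 CPM after 4-NP. miRNAs of other cells were present too. The list for peritubular myoid and smooth muscle cells (miR-143 and miR-145, 4 of 4 rows counted) summed to 120596 to 136273 CPM in the controls and 88389 to 96697 CPM after 4-NP, and the endothelial miR-126a (2 of 2) to 6325 to 7615 and 3234 to 3805 CPM. The germ cell list (12 of 12 counted) summed to 287 to 305 CPM and 172 to 207 CPM. Of its 9 tested rows, however, 4 were called higher and 4 lower. The myeloid and epithelial lists summed to at most 14.1 CPM in any sample. The liver miR-122-5p had at most 0.538 CPM in the controls, and 0.271, 21.7 and 1.42 CPM in 4-NP samples 1, 2 and 3. No marker of any list was at 0 in all samples. The part of other cells in the results below was not tested. In such bulk samples, fewer cells of a type and less RNA per cell cannot be told apart.

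The family made up 0.537 to 0.603% of mature miRNA reads in the controls and 0.728 to 0.773% after 4-NP. Its most abundant member by far was miR-16-5p, which alone took 84.1 to 87.3% of the family's reads in the 6 samples. The 5p arms together took 99.2 to 99.6% of them. By mean level miR-16-5p stood 18th among mature miRNAs in the controls and 14th after 4-NP.

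**Figure D1:**
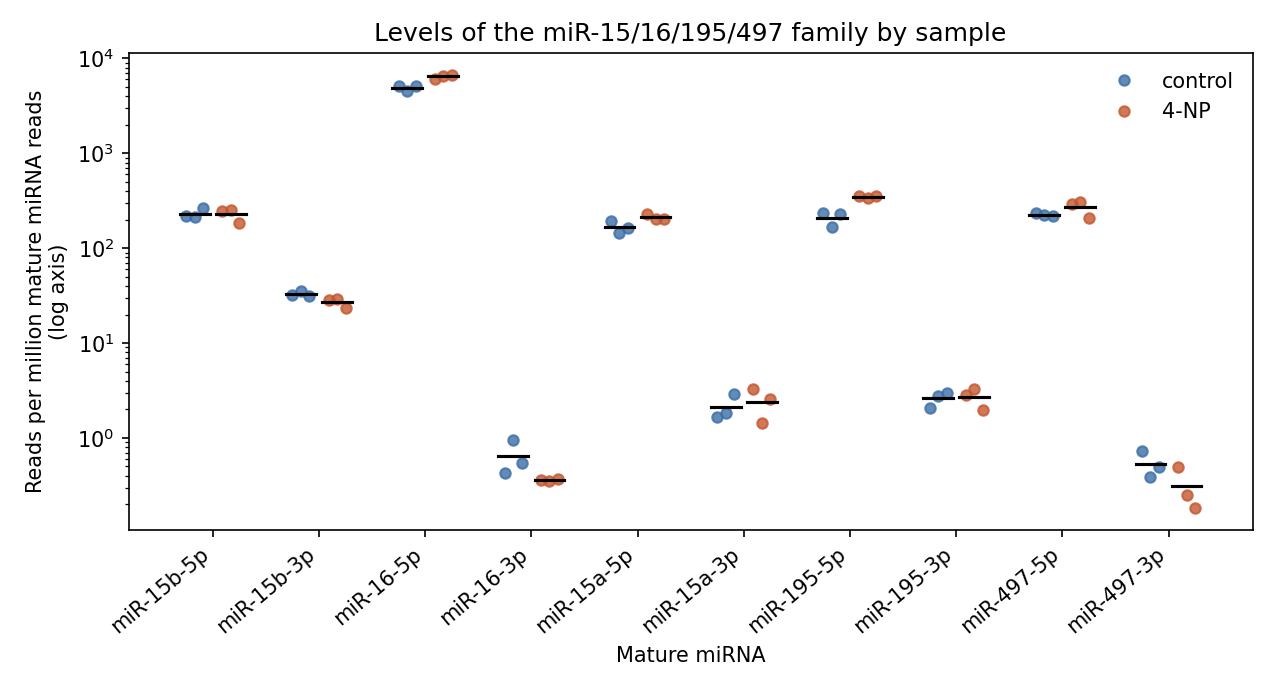
Level of each family arm in each sample, in reads per 1000000 mature miRNA reads on a log axis; points are the 3 control and the 3 4-NP samples and black lines are group means. miR-16-5p sits at 4583 or more in every sample, the other 5p arms between 145.5 and 358, and the 3p arms of miR-16 and miR-497 below 1.

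miR-16-5p had 5107, 4583 and 5114 CPM in control samples 1, 2 and 3 and 6118, 6576 and 6747 CPM in 4-NP samples 1, 2 and 3. All 3 treated samples lay above all controls. The means were 4935 ± 304 and 6480 ± 325 CPM (SD, n = 3 each), and the fitted log2 difference was 0.37 (SE 0.13), with an unadjusted p of 0.0292 and an adjusted p of 0.0977 from edgeR's quasi-likelihood test. Scaled only to the sum of mature counts, the log2 fold change was 0.39 and the adjusted p from the same edgeR test was 0.0199. Under the other settings and with each sample left out it ran from 0.0615 to 0.204 (edgeR, DESeq2 and limma). miR-16 is also abundant in red blood cells. The erythroid list (miR-451-5p and both arms of miR-144, 3 of 3 rows counted and none at 0 throughout) summed to 11.0, 11.0 and 40.3 CPM in control samples 1, 2 and 3 and to 59.1, 305 and 628 CPM in the 4-NP samples. Only 1 of its 3 rows had enough reads to be tested. That row was called higher, as were 7.47% of all tested miRNAs. The part of this list in the level of miR-16-5p was not tested.

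miR-195-5p, the arm closest in sequence to miR-16-5p, had the largest fitted difference among the family's 5p arms. It had 233, 166 and 228 CPM in control samples 1, 2 and 3 and 353, 336 and 358 CPM in the 4-NP samples, with no overlap between the groups. The means were 209 ± 37.4 and 349 ± 11.5 CPM (SD, n = 3 each). The fitted fold was 1.63 (95% interval 1.15 to 2.30, log2 fold change 0.71, SE 0.21), with an unadjusted p of 0.0129 and an adjusted p of 0.0605 in edgeR. The adjusted p was under 0.05 under 7 of 8 other settings run on all 6 samples, among them DESeq2 (0.00316), RLE factors in edgeR (0.0351) and scaling to the sum of mature counts in edgeR (0.0238). It was above 0.05 with a replicate block (0.0699 in edgeR) and whenever 1 sample was left out (0.0663 to 0.106 in edgeR).

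miR-497-5p, cut from the hairpin beside miR-195, had 237, 221 and 219 CPM in the controls and 293, 307 and 208 CPM after 4-NP. The groups overlapped because 4-NP sample 3 lay below every control. The fitted log2 difference was 0.22 (SE 0.17, edgeR adjusted p = 0.380). Without 4-NP sample 3 it was 0.37, with an adjusted p of 0.151 in edgeR, so the difference did not pass the test there either.

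miR-15a-5p had 191, 145.5 and 164 CPM in the controls and 230.4, 202 and 204 CPM after 4-NP. The groups did not overlap, but the log2 difference of 0.32 (SE 0.18) did not pass the test (adjusted p = 0.247 in edgeR). It was 0.17 without control sample 2, the lowest control, and 0.46 without control sample 1, the highest. miR-15b-5p, whose hairpin lies beside the placed miR-16 hairpin, had 216, 214 and 264 CPM in the controls and 248, 253 and 186 CPM after 4-NP. Its groups overlapped, with 4-NP sample 3 the lowest of all 6, and the fitted log2 difference was -0.05 (SE 0.18, edgeR adjusted p = 0.875). The sign of this value turned without control sample 3 and without 4-NP sample 3, where it was 0.07 each time.

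By mean level the order of the 5p arms was not the same in the groups. In the controls miR-15b-5p, miR-497-5p, miR-195-5p and miR-15a-5p followed miR-16-5p with means of 231, 226, 209 and 167 CPM, and each of these overlapped its neighbour. After 4-NP miR-195-5p came second, above all samples of miR-497-5p, while miR-497-5p (mean 269 CPM) and miR-15b-5p (229 CPM) overlapped, as did miR-15b-5p and miR-15a-5p (212 CPM). The arms compared are 21 to 22 bases long where matched, so these are levels in reads without a correction for length.

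Among the 3p arms, which are the rarer products of these hairpins, miR-15b-3p was the most abundant. It had 32.2, 35.2 and 31.0 CPM in the controls and 28.3, 29.0 and 23.4 CPM after 4-NP. All treated samples lay below all controls, and the log2 difference was -0.31 (SE 0.11), with an unadjusted p of 0.0305 and an adjusted p of 0.101 in edgeR. miR-195-3p reached 48, 64 and 67 reads in control samples against 62, 66 and 43 in treated ones, and miR-15a-3p reached 39, 42 and 64 against 72, 29 and 56. Both overlapped, with log2 differences of 0.02 (SE 0.25) and 0.16 (SE 0.37), and without 4-NP sample 1 the value of miR-15a-3p turned to -0.05. miR-497-3p reached 17, 9 and 11 reads against 11, 5 and 4, a log2 difference of -0.82 (SE 0.52) that did not pass the test (adjusted p = 0.300 in edgeR). miR-16-3p had 10, 22 and 12 reads against 8, 7 and 8 and was the 1 arm of 10 with too few reads to be tested.

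Across the family, 0 of the 9 tested arms had an adjusted p under 0.05 in edgeR, where 20.2% of all 549 tested miRNAs did, 7.47% higher and 12.8% lower after 4-NP. At an unadjusted p under 0.05 there were 3 of the 9 (miR-16-5p and miR-195-5p higher, miR-15b-3p lower), a share close to the 35.7% of all 549 tested miRNAs under that limit. DESeq2 called 1 arm and limma on log2(CPM + 1) called 1, in both cases miR-195-5p. The groups did not overlap for 4 of the 9 tested arms, 3 higher after 4-NP and 1 lower, against 42.4% of all tested miRNAs (19.9% higher and 22.6% lower). The median log2 fold change was 0.32 over the 5 5p arms and -0.15 over the 4 tested 3p arms, against -0.02 over all tested miRNAs. No arm reached the study's limit of a fold change over 2 or under 0.5 together with an unadjusted p under 0.05, which 15.7% of all tested miRNAs passed.

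**Figure D2:**
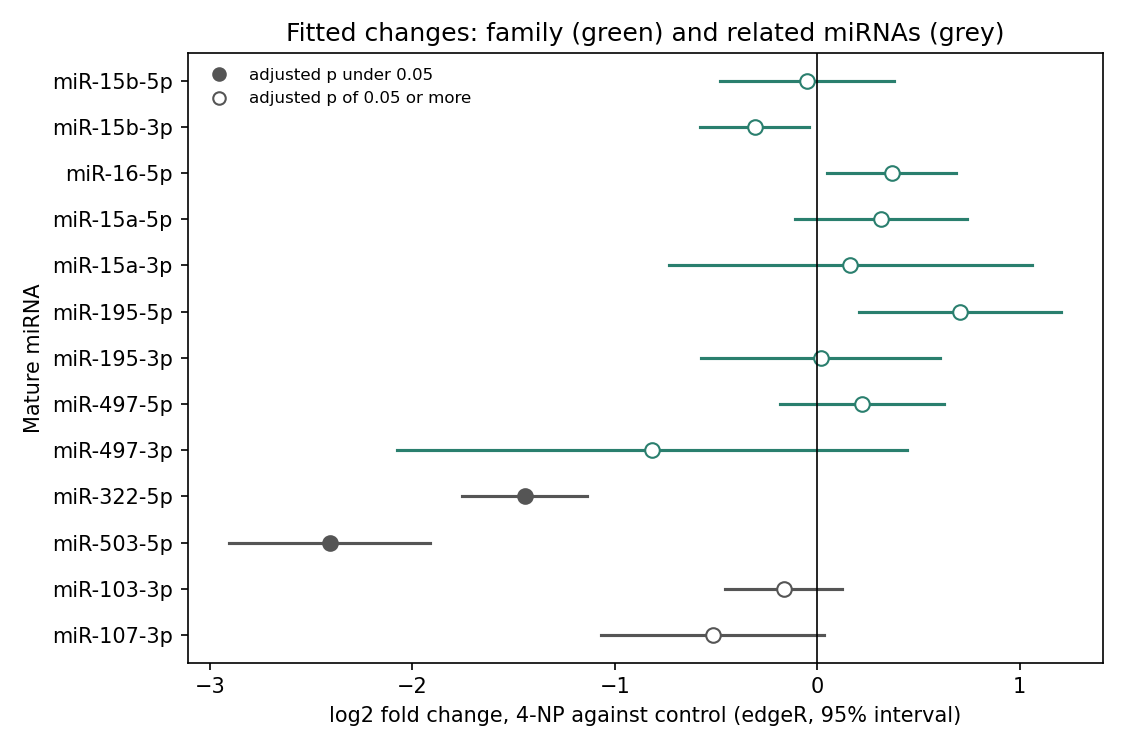
Fitted log2 fold change of 4-NP against control for the 9 tested family arms (green) and 4 related miRNAs (grey), with 95% intervals from edgeR; filled points have an adjusted p under 0.05. The family's points lie between -0.82 and 0.71 and are all open, whereas miR-322-5p and miR-503-5p are filled, at -1.45 and -2.41.

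The loci were then compared by sums, with the rows of miR-15a, which was not placed, added to those of miR-15b and miR-16. The rows of miR-15b, miR-16 and miR-15a summed to 5548, 4981 and 5575 CPM in the controls and 6628, 7062 and 7162 CPM after 4-NP. Those of miR-195 and miR-497 summed to 473, 390.4 and 450.3 CPM against 649, 647 and 568 CPM. Both sums were higher in 3 of 3 treated samples, by 1.30-fold and 1.42-fold in the means of the logs. The two-sided exact permutation test gave p = 0.1 for each, which is the lowest value possible with groups of 3. Most reads of the first sum were miR-16-5p (5107, 4583 and 5114 CPM in the controls). The other tested arms in it had fitted log2 differences of -0.05 (miR-15b-5p), -0.31 (miR-15b-3p), 0.32 (miR-15a-5p) and 0.16 (miR-15a-3p). The reads of miR-195 and miR-497 divided by those of miR-15b and miR-16, a ratio in which the scaling of the library cancels, came to 0.0883, 0.0808 and 0.0833 in control samples and 0.101, 0.0943 and 0.0817 in treated ones. These values overlapped, and the ratio differed by 0.13 on the log2 scale (two-sided exact permutation test, p = 0.3). The overlap came from 4-NP sample 3, without which the difference was 0.22 (p = 0.1 in the same exact test, the lowest possible), and without 4-NP sample 1 it was 0.062.

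The 5p arms of hairpins placed in the same cluster were compared in the same way. Reads of miR-16-5p were not split by hairpin, so its ratio may take in reads from outside the cluster. The ratio of miR-195-5p to miR-497-5p reads came to 0.982, 0.749 and 1.04 in control samples and 1.21, 1.09 and 1.72 in treated ones, higher in all 3 treated samples than in any control. The ratio of miR-16-5p to miR-15b-5p was 23.7, 21.4 and 19.4 against 24.7, 26.0 and 36.4, also without overlap. The log2 differences were 0.52 and 0.42 (two-sided exact permutation test, p = 0.1 for each, the smallest possible here). In both ratios 4-NP sample 3 was the highest of the 6, and without it the log2 differences were 0.33 and 0.24. These ratios were chosen after the values were seen.

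The balance of the arms was compared within each hairpin. The 5p arm of miR-15b held 87.0, 85.9 and 89.5% of the reads of both its arms in control samples and 89.8, 89.7 and 88.8% in treated ones, so that this hairpin alone had a 3p arm above 2% of its reads. Its 5p to 3p ratio was 6.69, 6.07 and 8.49 against 8.76, 8.71 and 7.93, and that of miR-195 was 113, 59.4 and 75.3 against 125, 101 and 180. The groups overlapped for both, and the log2 ratios differed by 0.27 for miR-15b and 0.73 for miR-195 (two-sided exact permutation test, p = 0.2 for each, 0.3 after Benjamini-Hochberg adjustment over 3 hairpins). The log2 ratio of miR-15a differed by 0.20 (p = 0.7 in the same exact test, adjusted 0.7). For miR-16 and miR-497 the 3p arm fell to 7 and 4 reads in the lowest sample, and their mean 5p to 3p ratios, 8406 against 16955 and 427 against 898, are given as values only. Both ratios were higher in all 3 treated samples than in any control.

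**Figure D3:**
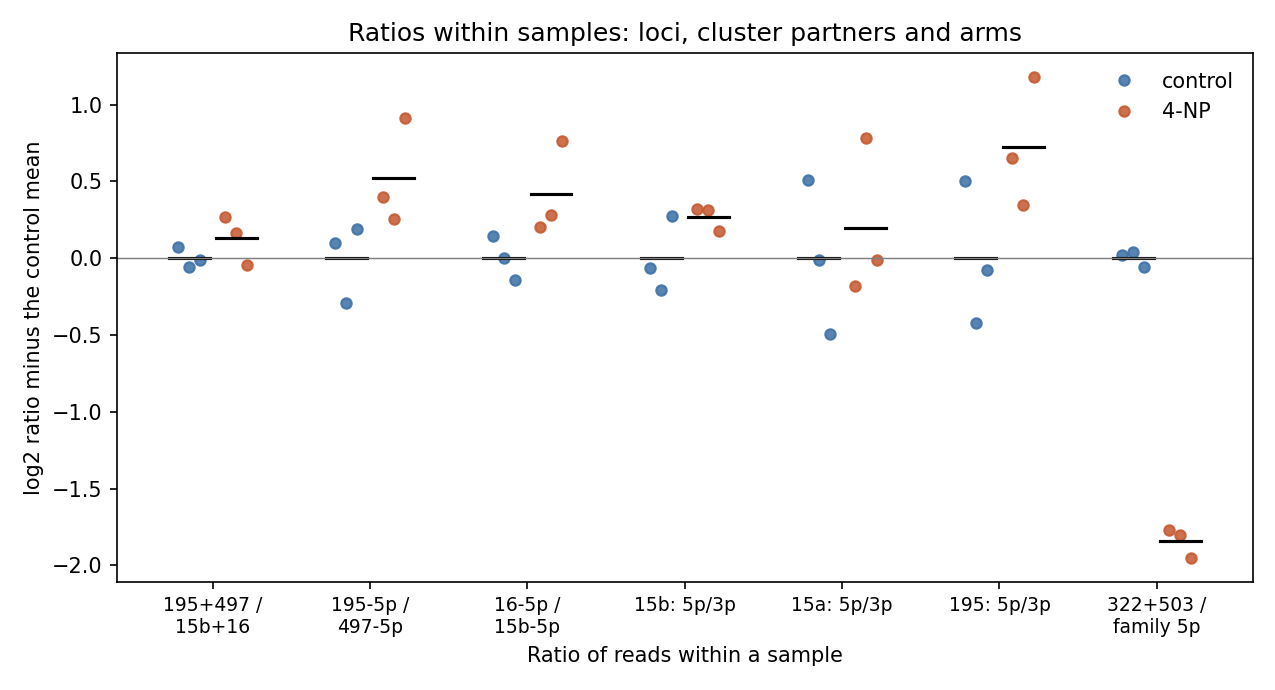
Log2 ratios of reads within each sample, minus the control mean of the same ratio; points are the 3 control and the 3 4-NP samples and black lines are group means. The ratio of miR-195-5p to miR-497-5p and that of miR-16-5p to miR-15b-5p lie higher in all 4-NP samples, the 3 arm ratios plotted (miR-15b, miR-15a and miR-195) overlap, and the ratio of miR-322-5p and miR-503-5p to the family's 5p arms stands at a log2 difference of -1.84.

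Reads counted on precursor families, a readout that did not define the members, were available for mir-16 and mir-15, and for related families given further below. The table does not say which hairpins each of these Rfam families took in. The mir-16 family had 381, 434 and 443 CPM in the controls and 567, 502 and 460.3 CPM after 4-NP, without overlap, where 35.1% of all tested other small RNAs were higher without overlap. Its log2 difference of 0.26 (SE 0.15) did not pass edgeR's test over 738 other small RNAs (adjusted p = 0.250), where 22.8% of the rows passed and the median log2 fold change was 0.46. When the other small RNAs set the TMM factors, the value turned to -0.13. The mir-15 family had 58.7, 52.2 and 55.0 CPM against 76.0, 52.1 and 20.5 CPM, and its log2 difference of -0.21 (SE 0.43, edgeR adjusted p = 0.722) turned to 0.16 without 4-NP sample 3, the lowest of all.

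The wider group of miRNAs with a related 5′ end was taken from a list of 4, miR-322-5p, miR-503-5p, miR-103-3p and miR-107-3p. This list was chosen with earlier results of these data known. miR-322, known in humans as miR-424, and miR-503 come from a cluster on the X chromosome and are likewise known for holding back the cell cycle, while miR-103 and miR-107 carry the core of the family's seed shifted by a base and are known for roles in insulin signalling and lipid metabolism. Their sequences, with bases 2 to 8 in capitals, were as follows.
miR-322-5p: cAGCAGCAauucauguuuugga
miR-503-5p: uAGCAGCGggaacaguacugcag
miR-103-3p: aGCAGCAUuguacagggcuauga
miR-107-3p: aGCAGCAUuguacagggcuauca
Of the 606 counted miRNAs with a RefSeq sequence, miR-322-5p was the 1 outside the family with its full 5p seed, and with miR-503-5p there were 2 that shared bases 2 to 7.

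These 4 miRNAs had 2 calls, both lower after 4-NP, where 12.8% of all tested miRNAs were called lower. miR-322-5p fell from 2319, 2077 and 2188 CPM in the controls to 826, 863 and 773 CPM after 4-NP. The fitted log2 difference was -1.45 (SE 0.13, edgeR adjusted p = 0.000530). miR-503-5p fell from 94.6, 101 and 103 CPM to 21.2, 14.3 and 21.4 CPM, with a fitted log2 difference of -2.41 (SE 0.21, edgeR adjusted p = 0.000487). Neither overlapped between the groups, and both stayed under an adjusted p of 0.05 when any 1 sample was left out. The 3p arms of these hairpins were also lower without overlap but were not called. The log2 difference was -0.90 for miR-322-3p (SE 0.31, edgeR adjusted p = 0.0872) and -0.50 for miR-503-3p (SE 0.16, edgeR adjusted p = 0.0749). All 4 miRNAs of the list were lower without overlap, where 22.6% of all tested miRNAs were. miR-103-3p (394 ± 10.2 against 358 ± 28.6 CPM, SD, n = 3 each) and miR-107-3p (9.29 ± 1.38 against 6.61 ± 1.20 CPM) had log2 fold changes of -0.16 and -0.52 that did not pass the test (adjusted p = 0.363 and 0.161 in edgeR).

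The pair from the X chromosome and the family's 5p arms were set against each other within samples. The reads of miR-322-5p and miR-503-5p divided by those of the family's 5p arms came to 0.403, 0.409 and 0.383 in control samples and 0.117, 0.114 and 0.103 in treated ones. The ratio was lower in 3 of 3 treated samples, with a log2 difference of -1.84 (two-sided exact permutation test, p = 0.1, the smallest possible here), and leaving out any 1 sample gave -1.87 to -1.78. This ratio and the sum that follows were chosen after the values were seen.

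Added together, the family's 5p arms with miR-322-5p and miR-503-5p made up 8397, 7509 and 8279 CPM in the controls and 8089, 8552 and 8496 CPM after 4-NP. The means were 8062 ± 482 and 8379 ± 253 CPM (SD, n = 3 each), a difference of 0.06 on the log2 scale, and the groups overlapped (two-sided exact permutation test, p = 0.5). The make-up of this sum differed. miR-16-5p held 61.2 ± 0.499% of it in the controls and 77.3 ± 1.92% after 4-NP, and miR-322-5p held 27.2 ± 0.697% and 9.80 ± 0.612% (SD, n = 3 each). miR-195-5p went from 2.58 ± 0.321% to 4.17 ± 0.221% of the sum, and miR-503-5p from 1.24 ± 0.111% to 0.227 ± 0.0523%. The share of miR-15b-5p, 2.87 ± 0.307% against 2.73 ± 0.480%, overlapped between the groups.

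**Figure D4:**
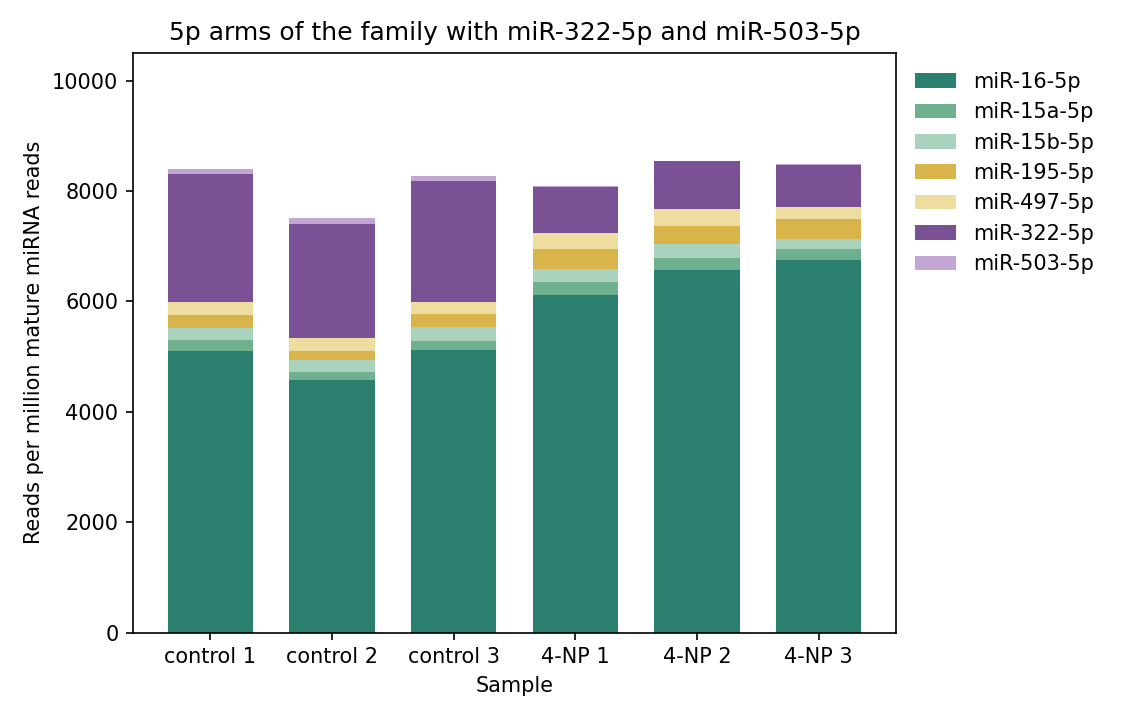
Stacked levels, in reads per 1000000 mature miRNA reads, of the 5p arms of the family with miR-322-5p and miR-503-5p, 1 bar per sample. The bars reach 7509 to 8552 in all samples, while the miR-322-5p segment covers 2077 to 2319 in the controls and 773 to 863 after 4-NP.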

How the data were processed

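Small RNA of 3 control and 3 4-NP samples had been excised from a gel, ligated to adapters carrying molecular identifiers and sequenced after amplification. The authors deposited 1 table of raw read counts per small RNA, with 2363 rows. The submitters' processing notes name HISAT2 and DESeq2. Their roles, the genome build and the counting rule are not given in the sources used here. The 6 deposited columns named for molecular identifiers held 1 for every known mature miRNA with reads, so they give no number of molecules. Whether the counts were collapsed by identifier is not given in the sources used here. The edgeR intervals, like the p-values, rest on the spread between these samples, which may be technical. The 4 rows that only total reads by genome region (3.52 to 5.91% of counts per sample) name no gene and were left out.

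Tests used R 4.3.3 and edgeR 4.0.16 (quasi-likelihood F test, two-sided, TMM, filterByExpr, Benjamini-Hochberg adjustment over all tested rows). Each SE is the fold change on the log2 scale divided by the square root of F. Precursor families were tested among the other small RNAs, scaled by the miRNAs' library sizes times TMM factors. Ratios had 0.5 reads added to each count, or to each sum where rows were summed. Alternatives used DESeq2 1.42.0, limma 3.58.1 and other scalings and filters. Sums and ratios were tested by exact permutation of the 6 samples. Every member arm is named, with a list of 4 related miRNAs. For each member arm with a mean of at least 100 reads, the 3 other miRNAs most like it over the samples were found. Members, lists and tests were chosen with earlier results of these data known. Figures were drawn with matplotlib 3.10.9. On simulated counts for the miRNA comparison (536 miRNAs), 96% of 4-fold and 53% of 2-fold changes were recovered. Every simulated miRNA had the same dispersion of 0.118, so these shares do not give the power for the family's own arms. No pair of samples within a group agreed within sampling noise (chi-square over its degrees of freedom 132 to 806), so none was counted as 1 library deposited again. This does not show that they came from separate cultures.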

Additional observations from a re-analysis of the deposited data

How the results depend on the processing

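The number of family arms with an adjusted p under 0.05 was 0 with edgeR and TMM, 2 (miR-16-5p and miR-195-5p) with scaling to the sum of mature counts, and 1 (miR-195-5p) with RLE factors, DESeq2, no filter, a minimum of 10 counts per sample, limma and known miRNAs only. It was 0 in each fit that left out 1 sample. Replicate numbers gave no sign of pairing (correlations of same-numbered deviations of -0.30, -0.26 and -0.02, against -0.10 to 0.30 between other numbers). With groups of 3 this cannot show that the samples were unpaired. With a replicate block the number of calls was 0 for the family and 82, against 111, for all miRNAs. With the block, the exact sign-flip test of the ratio of the loci (log2 difference 0.13) gave p = 0.5, and such a test cannot go below 0.25 with 3 pairs. The sign turned for arms near 0. miR-195-3p was -0.022 with the minimum of 10 counts and -0.11 to 0.19 with 1 sample left out, miR-15b-5p was -0.16 to 0.073 and miR-15a-3p -0.048 to 0.52. The 5p to 3p log2 ratio of miR-15a differed by -0.10 to 0.45 with 1 sample left out, and the mir-15 precursor family by -0.61 to 0.16. The mir-16 precursor family was -0.13 when the other small RNAs set its TMM factors. For single miRNAs and the mir-15 and mir-16 precursor families, 182 of 199 values under an alternative kept direction and side of the threshold. A further 8 passed it where the reported value did not (miR-195-5p and miR-16-5p), and 9 changed sign. Sums and ratios cannot go below p = 0.1 in the exact permutation test and are not in this count. With 1 sample left out, log2 differences of uncalled values also ranged widely, from 0.15 to 0.37 for miR-497-5p, -1.28 to -0.50 for miR-497-3p, -0.67 to -0.28 for miR-107-3p, 0.17 to 0.41 for the 5p to 3p ratio of miR-15b and 0.50 to 0.98 for that of miR-195. The cause was not tested. The depth limits miR-16-3p and miR-497-3p, which had 4 to 22 reads per sample.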

Other observations

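Likeness between miRNAs was described over the 6 samples as Pearson's r of log2(CPM + 1), among 346 other tested miRNAs with a mean of at least 100 reads. These values carry no test, since all points share the split into 2 groups and the scaling of the sample. miR-16-5p was most like miR-194-5p (r = 0.98), miR-6329 (0.98) and the authors' predicted novel_mir3 (0.96). miR-195-5p was most like novel_mir3 (0.97), miR-148a-5p (0.96) and miR-335 (0.96). miR-497-5p was most like miR-3596a (0.95), miR-872-5p (0.95) and miR-190b-5p (0.91), and miR-15a-5p like novel_mir61 (0.97), miR-101b-3p (0.93) and novel_mir15 (0.90). miR-15b-3p was most like miR-191a-3p (0.99), miR-503-3p (0.98) and miR-1193-3p (0.95), and miR-15b-5p like miR-3570 (0.87), miR-542-5p (0.87) and miR-183-5p (0.83).

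Within the family, r was 0.97 between miR-16-5p and miR-195-5p, whose placed hairpins lie in different clusters. It was -0.09 between miR-16-5p and miR-15b-5p, whose placed hairpins lie in the same cluster. Reads of miR-16-5p were not split by hairpin, so this value need not compare products of 1 cluster only. Between miR-195-5p and miR-497-5p, also cluster partners, it was 0.49. miR-15a-5p had r of 0.92 with miR-195-5p and 0.82 with miR-16-5p, and miR-15b-5p and miR-497-5p, from different clusters, had 0.59. In both of the last 2 arms, 4-NP sample 3 was the lowest of the 6.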
